A study of Arabidopsis thaliana with 6 samples.

Results

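The AP2/ERF genes described here are the ERF, CRF, DREB, CBF and RAP2 genes of Arabidopsis thaliana, taken by name from the annotation. A protein-coding gene was a member when its symbol or a synonym was one of these names with a number or letter code, or CBF1 to CBF4, and its full name was that of such a DNA-binding factor. This gave 59 of 27444 protein-coding genes on chromosomes 1 to 5, with 25 under an ERF symbol, 13 under RAP2, 12 under CRF, 4 under CBF and 5 under other DREB names. Of these, RAV2 (also RAP2.8) and RAP2.7 (also TOE1) carry a RAP2 name but belong to the RAV and AP2 branches of the superfamily.

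Binding of PIF4, a basic helix-loop-helix factor that promotes elongation growth and is removed after light activates phytochrome, was located genome-wide by ChIP-seq, the sequencing of DNA that is precipitated together with the factor, in whole seedlings. They received 3 h of white light to start germination and then grew in darkness at 21 °C for 3 days. Transgenic seedlings that overexpress Myc-tagged PIF4 were set against wild-type seedlings, using an anti-Myc antibody for both, with 3 libraries per genotype and each library pooled from 4 ChIP assays of 2 biological replicates. As a model the line is limited by overexpression, so the peaks are those of tagged PIF4 above its native level, and the design text calls the line P1M, a name that the labels do not explain. The authors deposited 1 peak list per PIF4-Myc library, numbered here 1 to 3, each called against a wild-type ChIP.

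AP2/ERF factors share a DNA-binding domain and form one of the largest families of plant transcription factors. ERF proteins bind GCC-box elements and act at the end of the ethylene pathway, and a group of them carries an EAR motif that represses transcription. DREB proteins, including the CBF factors that drive cold acclimation, bind dehydration-responsive elements. CRF proteins are cytokinin response factors, and the group VII factors RAP2.2, RAP2.3, RAP2.12, HRE1 and HRE2 serve oxygen sensing. In light-grown plants PIF4 and PIF7 have been described as repressors of the CBF genes.

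The lists do not stand as equal replicates. They held 12177, 4093 and 2931 peaks for lists 1, 2 and 3, from 12766185, 9385807 and 12292381 treatment tags, and their median fold enrichments were 0.99, 2.46 and 4.17. In list 1, 51.2% of peaks had a fold below 1 and every tag value was a multiple of 5. Of 2454 overlapping peak pairs of lists 2 and 3, 1240 had an identical start, as did 6 of the 20 pairs at the members. The headers name the same control for lists 1 and 2. Counts of genes with a shared region are therefore given with and without each list, and each fold is the authors' value for 1 peak, with no error of its own. The peak lists hold no value per library that could be tested across libraries, so no count carries a p-value, and counts are read beside the same share over all protein-coding genes.

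PIF4-Myc peaks lay near these factor genes more often than near protein-coding genes as a whole, in lists 2 and 3 above all. A gene was counted when a summit lay inside it or within 2 kb of either end. List 2 had a peak at 23 of the 59 members (39.0%), against 19.0% of all genes, and list 3 at 18 members (30.5%), against 14.2%. All 18 members reached by list 3 were among the 23 of list 2. List 1 had a peak at 39 members (66.1%), but also at 53.2% of all genes. A shared region, meaning overlapping peaks of at least 2 lists with each summit assigned to the gene, lay at 21 members (35.6%), against 15.1% of all genes. A region in all 3 lists lay at 8 members (13.6%), against 4.13%. The members were shorter than genes in general, with a median length of 1314 bp against 2078 bp, and the part of gene length in these counts was not tested. Most member peaks of lists 2 and 3 had a high false discovery rate in the authors' lists, with a median of 61.7% in list 2 and 56.5% in list 3. Over all gene-near peaks of those lists the medians were 64.2% and 65.6%. In list 1, where folds were lowest, the median rate was 4.05% over member peaks and 3.99% over all gene-near peaks. No member peak of any list stood at 1% or below, so each of the 5 counts was 0 at that limit. The shares of all genes there were 0.572%, 0.394% and 0.00364% for lists 1 to 3. For a shared region the share was 0.0510%, and for all 3 lists 0.00%. Beside such shares, counts of 0 among 59 genes are not particular to the family.

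**Figure D1:**
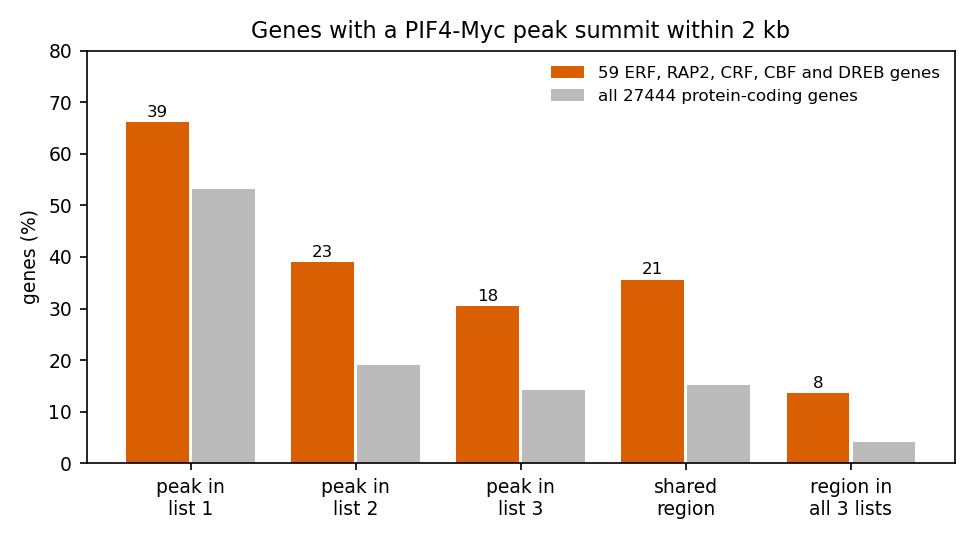
Percent of genes with a peak summit in the gene or within 2 kb, per list, in a shared region of at least 2 lists, and in a region of all 3 lists. Orange bars are the 59 factor genes, with the number of genes above each bar, and grey bars all 27444 protein-coding genes; the orange bar is the higher in each pair, and the gap is narrowest relative to its grey bar in list 1.

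The count of shared members depended on the lists used. Without list 1, regions of lists 2 and 3 lay at 18 members, against 11.6% of all genes. Without list 2 the count was 8, against 4.58%, and without list 3 it was 11, against 7.43%. The 11 members with a region that needed a list 1 peak compare with 8.01% of all genes. In each of these counts the percent of members was above the percent of all genes. For the smaller groups of genes below, the shares of all genes to read beside are 15.1% for a shared region, or 11.6%, 4.58% and 7.43% without lists 1, 2 and 3, with 39.0% for list 1 peaks alone and 39.5% for no peak. These groups hold 4 to 38 genes, so 1 gene moves their percent by far more than it moves that of all genes.

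The median folds at the members were not above those of gene regions as a whole. Over the 19 distinct member regions with peaks of lists 2 and 3, the median fold was 2.57 in list 2 and 3.65 in list 3. Over all 2095 gene regions with both lists, the medians were 2.72 and 4.36. The list 3 fold was above that median in 5 of the 19. List 3 gave the higher fold in all 19, by a factor of 1.34 to 1.94 with a median of 1.60, close to the median of 1.59 over all gene regions.

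**Figure D2:**
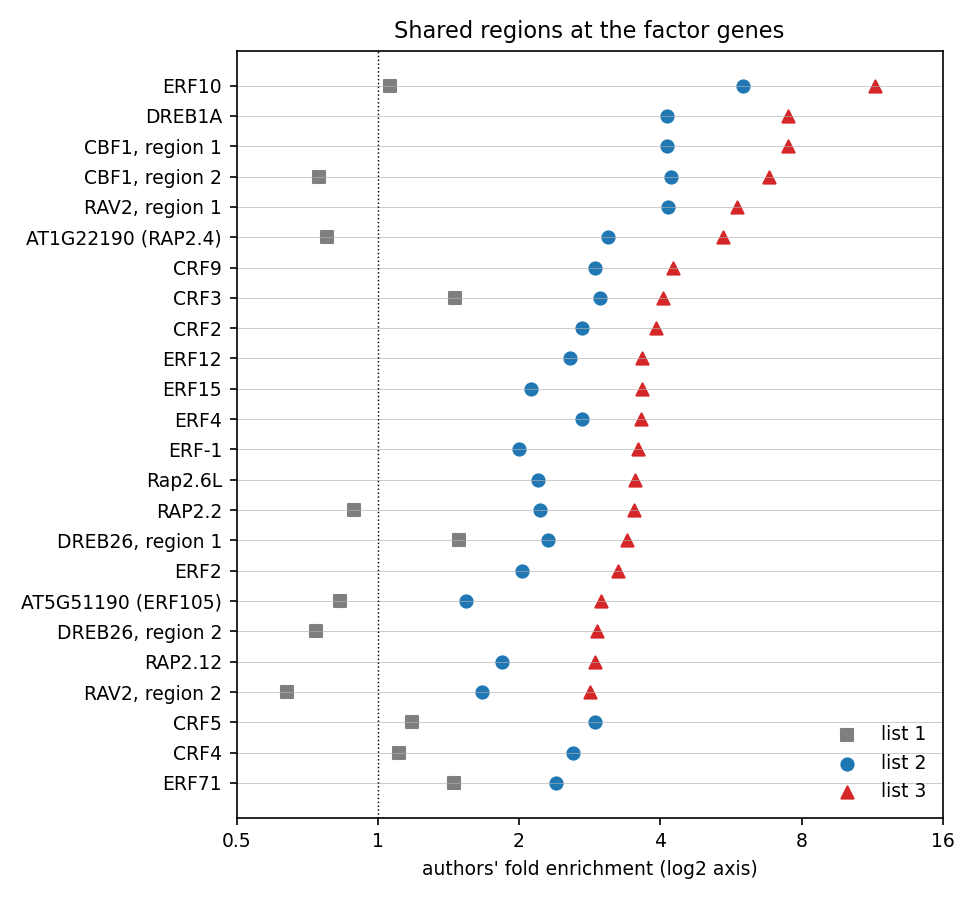
Authors' fold enrichment (log2 axis) in each shared region at the factor genes, 1 row per gene and region, for lists 1 (squares), 2 (circles) and 3 (triangles). List 1 folds lie between 0.64 and 1.49 and may not be on the same measure as those of lists 2 and 3. List 3 folds reach 11.46 at ERF10. A region between DREB1A and CBF1 appears in 2 rows, as it was assigned to both genes.

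The EAR-motif repressors included the gene with the highest fold of the family. ERF10 (AT1G03800) had a region on chromosome 1 (955200 to 958381) of TAIR10. Its folds were 1.06, 5.99 and 11.46 in lists 1, 2 and 3. By fold it ranked 81 among the 4093 peaks of list 2 and 42 among the 2931 of list 3. The summits of lists 2 and 3 lay 48 bp outside the gene, and ERF10 was the nearest gene. List 1 had 3 peaks assigned to ERF10. The one with a fold of 1.06 had its summit 79 bp from the gene, one with a fold of 0.76 had it inside the gene, and the other with a fold of 0.95 had it 1583 bp away, inside SOM. By p they ranked 5716, 2318 and 1736 among 12177, so the peak closest to the summits of lists 2 and 3 had the poorest rank of these. A further pair of peaks at 953955 to 954682, with folds of 4.46 in list 2 and 7.61 in list 3, had its summit 2776 bp from ERF10, also inside SOM, a zinc-finger gene that holds back germination.

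ERF4 (AT3G15210), a repressor of ethylene and jasmonate responses, had a region on chromosome 3 (5121072 to 5123170), with folds of 2.72 in list 2 and 3.64 in list 3. Its list 1 peaks lay in other places, 1180 and 1706 bp from the gene. A second region of lists 2 and 3 had its summit 2923 bp from ERF4 and so outside the 2 kb limit, with folds of 4.89 and 6.91. That summit was nearest to AT3G15220. ERF12 (AT1G28360) had folds of 2.57 in list 2 and 3.66 in list 3 on chromosome 1 (9949342 to 9951210). Its list 3 summit lay 1637 bp from ERF12 and 290 bp from AT1G28350, so the neighbour was the closer gene.

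Of the 8 EAR-motif repressors, ERF3, ERF4 and ERF7 to ERF12, 3 had a shared region and 3 had list 1 peaks alone, against 15.1% and 39.0% of all genes. Leaving out list 1 gave 3, and leaving out list 2 or list 3 left 1. ERF11, which stands next to ERF12 with a gap of 2668 bp, had list 1 peaks alone, with folds of 0.6, 1.12 and 1.52. ERF8 and ERF9 had no assigned peak. ERF7 had a list 1 peak with a fold of 0.97, nearest to ABCI15. ERF3 had list 1 folds of 0.88 and 0.89, while peaks of lists 2 and 3 with folds of 2.75 and 3.36 lay 2355 and 2398 bp away, and ERF3 was their nearest gene.

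Among the ERF activators tied to defence, list 3 folds of shared regions were at or below 3.65, the median over the distinct member regions. Such folds were also found in other groups of members. ERF-1 (AT4G17500, also ERF1A), an activator through the GCC-box, had folds of 2 in list 2 and 3.59 in list 3 on chromosome 4 (9758316 to 9759319). The summits of the pair lay 173 and 572 bp from the gene. ERF2 (AT5G47220), a related activator, had folds of 2.03 in list 2 and 3.25 in list 3 on chromosome 5 (19172374 to 19174060). Both of its summits lay 61 bp from the gene. ERF15 (AT2G31230) had folds of 2.12 and 3.65 in lists 2 and 3 on chromosome 2 (13307349 to 13308025), with both peaks spanning the same bases. Its summits lay 80 and 243 bp from the gene.

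ERF105 (AT5G51190), an ERF gene induced by cold, had a region in all 3 lists on chromosome 5 (20801205 to 20802453). Its folds were 0.83, 1.54 and 2.99, and the list 3 summit lay 398 bp from ERF105 and 356 bp from AT5G51180. The fold of 1.54 ranked 4046 among 4093 in list 2, near the bottom of that list. Of the 11 genes in this group, 4 had a shared region, 4 had list 1 peaks alone and 3 had none, against 15.1%, 39.0% and 39.5% of all genes. Without list 1 the shared count was 4, and it was 1 with list 2 or list 3 left out. ERF1 (AT3G23240), which joins the ethylene and jasmonate pathways, and its relatives ERF6 and ERF14 were those with no assigned peak. ERF5, ERF13, ERF104 and TDR1 had list 1 folds from 0.73 at ERF104 to 1.81 at TDR1, the highest list 1 fold at any member. The TDR1 summit lay 1025 bp from that gene and inside ESE1, which was thus the nearer gene. Of the ERF genes in no group described here, ERF38 and ERF53 had list 1 peaks alone, with folds of 1.04 and 1.37. ERF110 and ERF115 (AT5G07310), which triggers division of root stem cells, had no assigned peak.

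Among the group VII factors, whose stability depends on oxygen, RAP2.2 and RAP2.12 had a shared region of lists 2 and 3. RAP2.2 (AT3G14230) had a wide region on chromosome 3 (4736195 to 4739309). Its folds were 0.89, 2.22 and 3.52 in lists 1, 2 and 3. The summits of lists 2 and 3 lay 104 and 106 bp outside the gene, while the list 1 summit lay inside it. RAP2.12 (AT1G53910) had folds of 1.84 in list 2 and 2.90 in list 3 on chromosome 1 (20135562 to 20137352), with the list 3 summit in the gene. This was the only shared region whose summit of highest fold was inside a member gene. Its list 2 summit lay 11 bp outside the gene. The region was no longer shared with summits chained within 100 bp or with a reciprocal overlap of 50%. A second list 3 peak assigned to RAP2.12 had a fold of 3.69 and a false discovery rate of 99.8%. The summit of that peak lay 698 bp from RAP2.12 and inside GLIP5.

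HRE2 (AT2G47520, listed as ERF71), a hypoxia-induced member of the group, had a region of lists 1 and 2 with folds of 1.45 and 2.4. Its list 2 summit lay inside the neighbouring gene AT2G47530. RAP2.3 (AT3G16770, listed as EBP) had a list 1 peak alone, with a fold of 0.97. HRE1 (AT1G72360, listed as ERF73) had no assigned peak, and a list 3 peak with a fold of 2.61 lay 2061 bp from it, just outside the limit. Of the 5 group VII genes, 3 thus had a shared region, against 2 without list 1, 1 without list 2 and 2 without list 3, beside 15.1% of all genes with every list.

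Other RAP2 genes had regions with higher folds. AT1G22190, which the annotation also calls RAP2.4, had folds of 0.78, 3.09 and 5.44 on chromosome 1 (7834049 to 7834991). Its peaks of lists 2 and 3 spanned the same bases, with the summit 1110 bp from the gene and no other gene nearer. Its namesake RAP2.4 (AT1G78080, also WIND1), which promotes dedifferentiation after wounding, had a list 1 peak alone, with a fold of 0.64. Beyond the 2 kb limit, a list 2 peak with a fold of 5.53 lay 2991 bp from it and a list 3 peak with a fold of 7.93 lay 2980 bp from it, both nearest to AT1G78070. RAV2 (AT1G68840, also TEM2), a repressor of flowering, had 2 regions on chromosome 1. The region at 25878290 to 25879368 had folds of 4.16 in list 2 and 5.83 in list 3, with its summits 1072 bp from the gene. The one next to it, at 25879788 to 25881694, had folds of 0.64, 1.67 and 2.83 over lists 1 to 3.

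Rap2.6L (AT5G13330), which takes part in wound and stress responses, had folds of 2.19 in list 2 and 3.54 in list 3 on chromosome 5 (4270994 to 4272361). Its summits lay 238 bp from the gene. RAP2.9 had a list 2 peak inside the gene with a fold of 1.82, and a separate list 1 peak. RAP2.1, RAP2.6 and RAP2.10 had list 1 peaks alone. RAP2.7, a repressor of flowering, and RAP2.11, a factor of the response to low potassium, had no assigned peak. In all, 5 of the 13 RAP2 genes had a shared region, with or without list 1, against 15.1% and 11.6% of all genes, and 3 did without list 2 or without list 3, against 4.58% and 7.43%.

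**Figure D3:**
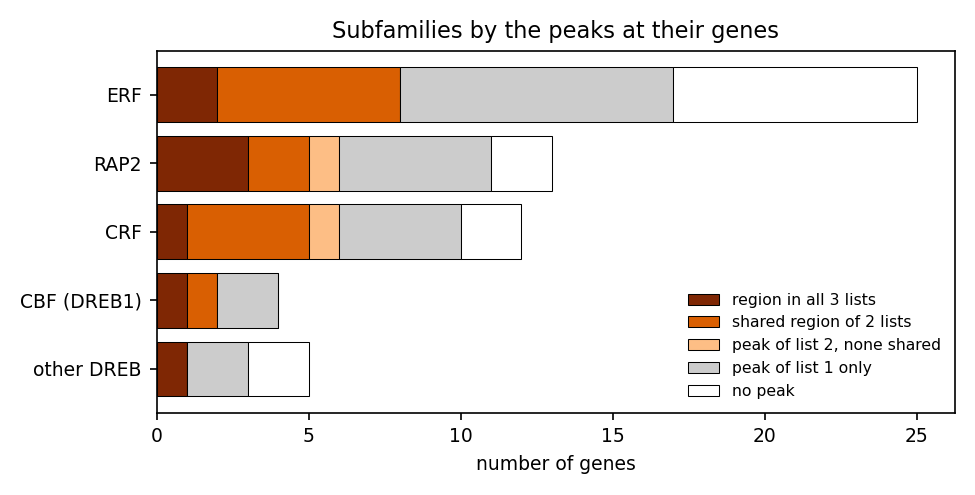
Number of genes in each subfamily by the peaks assigned to them: a region in all 3 lists, a shared region of 2 lists, a list 2 peak with no shared region, list 1 peaks alone, or no peak. Shared regions lie at 8 of 25 ERF, 5 of 13 RAP2, 5 of 12 CRF, 2 of 4 CBF and 1 of 5 other DREB genes, against 15.1% of all genes.

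The cold-response CBF genes stand in a tandem row on chromosome 4, and peaks with high folds lay on both sides of CBF1. CBF1 (AT4G25490, also DREB1B) had a region at 13022564 to 13024051 with folds of 0.75, 4.22 and 6.82 in lists 1, 2 and 3. The list 1 summit lay 780 bp from CBF1 and 722 bp from RS40, the nearer gene, while those of lists 2 and 3 were nearest to CBF1. A second region, at 13020896 to 13021648, had folds of 4.14 in list 2 and 7.49 in list 3 and spanned the same bases in both. By fold, these peaks ranked in the top 8.14% and 8.97% of list 2 and the top 10.3% and 7.23% of list 3. Their authors' false discovery rates, from 8.06% to 13.8%, were low for lists whose medians were 63.9% and 65.2%.

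The second region lay in the gap of 2379 bp between CBF1 and CBF3 (AT4G25480, listed as DREB1A). Its list 3 summit was 479 bp from CBF1 and 1901 bp from CBF3, just inside the limit of 2 kb for the latter. CBF3 was therefore counted through a region that was closer to CBF1. Inside CBF3 itself there was a list 2 peak with a fold of 1.93 that no other list shared. CBF2 (AT4G25470, also DREB1C) had a list 1 peak alone, with a fold of 0.87 and its summit 1580 bp away, nearest to ABCB28. CBF4 (AT5G51990), a relative on chromosome 5 that is tied to drought rather than cold, had a list 1 peak alone with a fold of 0.44, the lowest of any peak at the members. In the CBF row, then, list 2 peaks lay from inside CBF3 to beyond CBF1, and list 3 peaks only on the sides of CBF1. No peak of list 2 or 3 was assigned to CBF2. With list 2 or list 3 left out, CBF1 kept a shared region and CBF3 did not.

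Of the 5 other DREB genes, 1 had a shared region, beside 15.1% of all genes, and it kept one with any 1 list left out. DREB26 (AT1G21910) had a region in all 3 lists on chromosome 1 (7696060 to 7698479), with folds of 1.49, 2.31 and 3.39. The region chained separate summits. A list 1 peak with a fold of 1.14 and the list 2 peaks, with folds of 1.82 and 2.31, had summits inside the gene. The list 1 peak with the fold of 1.49 had its summit 416 bp outside, on the higher-coordinate side. The list 3 summit lay 126 bp outside, on the lower-coordinate side. A further region of lists 1 and 3, at 7698500 to 7699751, had folds of 0.74 and 2.93. Peaks with folds of 3.25 in list 2 and 5.08 in list 3 lay 2142 bp from DREB26, nearest to p24delta5. DREB2A (AT5G05410), a main activator of drought and heat responses, had 3 list 1 peaks with folds from 0.58 to 0.92. DREB19 had a list 1 peak with a fold of 0.79, and DREB2B and DREB2C had no assigned peak.

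Of the 12 cytokinin response factors, 5 had a shared region, beside 15.1% of all genes. Leaving out list 1 or list 3 left 3, and leaving out list 2 left 1. CRF3 (AT5G53290), which acts in lateral root initiation in the cold, had one in all 3 lists on chromosome 5 (21619350 to 21620538). Its folds were 1.46, 2.98 and 4.06, and its summits lay 928, 954 and 954 bp from the gene. In list 3 this peak had a false discovery rate of 96.1%. CRF2 (AT4G23750, also TMO3), a target of the auxin response factor MONOPTEROS, had folds of 2.72 in list 2 and 3.91 in list 3 on chromosome 4 (12374241 to 12374900). Its summits lay 1544 and 1511 bp from the gene, and a list 2 peak with a fold of 1.77 lay inside it.

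CRF9 (AT1G49120) had folds of 2.91 in list 2 and 4.26 in list 3 on chromosome 1 (18175122 to 18176775). The summits lay inside BBX17, a B-box gene, and 1582 and 1589 bp from CRF9. CRF5 and CRF4 had regions of lists 1 and 2 alone, with folds of 1.18 and 2.91 at CRF5 and 1.11 and 2.60 at CRF4. The nearest gene to the CRF5 summit of list 2 was AT2G46308, 66 bp away. CRF10 had a list 2 peak with a fold of 3.16 and 3 list 1 peaks in other places, so it had no shared region. CRF1, CRF6, CRF8 and CRF11 had list 1 peaks alone, and CRF7 and CRF12 had none. At CRF11, a pair of peaks with folds of 4.03 in list 2 and 7.22 in list 3 lay 2279 bp away, nearest to HMT-1.

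Summits at the members lay mostly outside the genes. The 23 distinct shared regions made 24 pairs of gene and region. In 12 pairs the summit of highest fold was outside the gene and within 500 bp, in 3 it was farther but within 1000 bp, in 8 it lay beyond 1000 bp, and in 1 it was inside the gene. The member was the nearest gene in 18 of the 24. Counting every assigned peak, 5 of 28 pairs of peak and member had the summit in the gene in list 2 (17.9%) and 1 of 22 in list 3 (4.55%), against 26.7% and 24.1% of pairs over all genes. In list 1 this was 18 of 60 (30%), against 37.0%. With median lengths of 1314 bp for the members and 2078 bp for all genes, the part of gene length in these shares was not tested. The annotation used carries no strand, so upstream and downstream are not told apart.

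**Figure D4:**
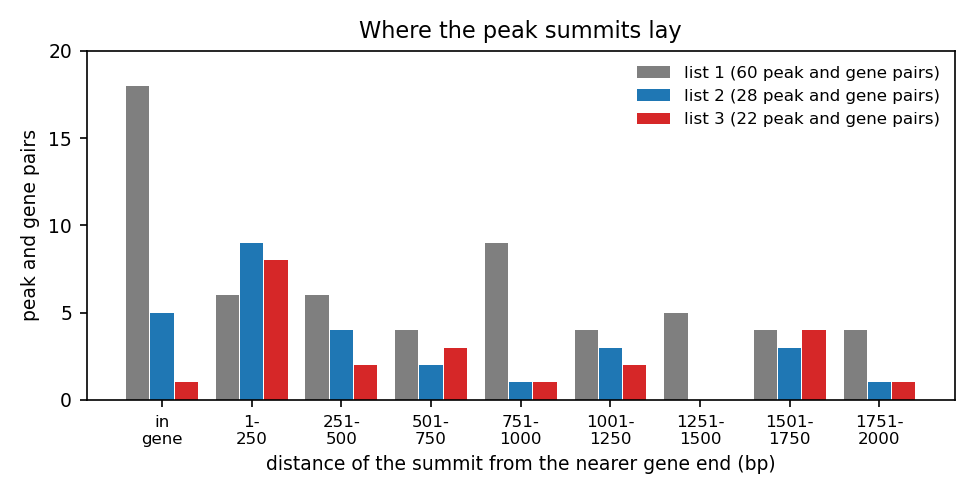
Number of pairs of peak and factor gene by the distance of the peak summit from the nearer end of the gene, in bp, for lists 1, 2 and 3. In list 1 the bar for summits in the gene is the tallest, with 18 pairs; in lists 2 and 3 the first 250 bp outside the gene hold the most, with 9 and 8 pairs.

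List 1 folds were low at these regions, as they were in that list as a whole. In 5 of the 8 regions with all 3 lists, the list 1 fold was below 1, namely at CBF1, ERF105, RAP2.2, RAV2 and AT1G22190. When summits were chained at distances of up to 100 bp, 3 members kept all 3 lists, CBF1, CRF3 and ERF10, against 1.97% of all genes. At CBF1 the summits lay 780, 691 and 652 bp from the gene in lists 1 to 3, so those of lists 1 and 3 were joined only through list 2. Of all 59 list 1 peaks at members, 34 had a fold below 1, beside 51.2% of all peaks in that list. The median list 1 fold was 0.93 over member peaks and 0.97 over all gene-near peaks, so low folds were not particular to the members. The 22 members with list 1 peaks alone were 37.3% of the family, against 39.0% of all genes, and the 14 with no peak were 23.7%, against 39.5%.

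Relatives and pathway partners of the family were counted in the same way. Of 38 further AP2/ERF superfamily genes, 10 had a shared region, beside 15.1% of all genes. Leaving out list 1, 2 or 3 gave 8, 5 or 7 genes, and BBM, RAV1, TEM1, EDF3 and ESE3 had one in all 3 lists. BBM, which promotes embryo development, had folds of 2.18, 5.26 and 8.57 in lists 1, 2 and 3. RAV1, TEM1 and EDF3 are relatives of RAV2, and their list 3 folds were 4.91, 3.96 and 5.87, so all 4 of these RAV genes had a region in all 3 lists. ORA59, which joins ethylene and jasmonate signals, had folds of 1.12 and 2.58 in lists 1 and 2.

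Ethylene receptors and signalling genes upstream of the ERF factors had a shared region at 8 of 12, and at 7 without list 1, 4 without list 2 and 5 without list 3. The receptor gene EIN4 was among them, with folds of 7.01 in list 2 and 11.94 in list 3. Regulators of the CBF genes had one at 1 of 10, RHL41 (ZAT12), a zinc-finger repressor. Its folds were 4.92 in list 2 and 7.07 in list 3, and it was lost without either. ICE1, an activator of CBF3, had a list 1 peak alone with a fold of 1.87. Targets of CBF and DREB2 factors had one at 4 of 11, and at 3 without list 1, 2 without list 2 and 3 without list 3. Of these, HSFA3 (AT5G03720) had the same folds in lists 1 and 2, 0.62 and 2.46, as CTR1 (AT5G03730) of the ethylene genes. The same region may thus be counted in both groups. The tandem genes KIN1 and KIN2, induced by cold, share a region with folds of 0.79, 2.68 and 3.51, and ERD10, a dehydrin gene, had folds of 2.72 and 4.49 in lists 2 and 3.

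Cytokinin receptors, phosphotransfer proteins and type B response regulators had a shared region at 1 of 13 with every list and with any 1 list left out. This was AHP5, with folds of 0.97, 1.79 and 3.27 over lists 1 to 3. Hypoxia targets and regulators of the group VII factors had one at 4 of 13, at 4 without list 1, and at 2 without list 2 or without list 3. Among these, LBD41, a hypoxia-induced factor gene, had folds of 0.65, 3.73 and 5.96, and SUS4, a sucrose synthase gene, had 3.53 and 6.23 in lists 2 and 3. The 6 defence genes downstream of ERF factors had 0 shared regions and list 1 peaks at 4, with folds from 0.6 to 1.08. These lists are short, and each count is a description beside the 15.1% of all genes. Gene length also differed between them. The median was 702.5 bp for the defence genes, 3214 bp for the ethylene genes and 3499.5 bp for the CBF regulators, against 2078 bp for all genes. The part of gene length in these counts was not tested.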

How the data were processed

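The 3 PIF4-Myc and 3 wild-type anti-Myc ChIP libraries, of fragments of 200 to 300 bp, were read for 50 cycles from a single end, per the labels' protocols. The build TAIR10 and the tools Bowtie 0.12.7, CASAVA 1.8.0 and MACS 1.4.1 are in the submitters' processing notes. Per the file headers, each list was called from 1 library at a p cutoff of 1e-05, list 2 with MACS 1.4.1 and the others with MACS 1.4.0rc2. Filtered treatment tags in the headers are 8634942 for list 2 and 10730507 for list 3, while 112342435 for list 1 exceeds its total. Depth per position is unknown, so folds carry no interval.

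Fold enrichment was deposited by the authors as a ratio of summit tags to the caller's local expectation, and the false discovery rate as a percent. The deposited score, −10 times log10 of the p-value, gave ranks. The deposited tag counts per peak entered no result. In list 1, where each is a multiple of 5, they were taken to be a score. Starts, ends and summits are in bp.

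Genes came from RefSeq on TAIR10.1, whose table gives no strand, description or sequence here, so full names among the synonyms stood in for the description. Of the summits of lists 2 and 3, 62.7% lay outside genes, 60.7% and 60.8% when shifted by 250 bp down or up the chromosome, 44.0% and 45.0% when shifted by 2000 bp. Gene coordinates are not given, and motifs were not analysed here. Peaks overlapping by at least 1 bp were chained into regions. Named are all members with a shared region, CBF1 to CBF4, and members without peaks of lists 2 and 3, of some subfamilies more than the 3 the rule allowed. Peaks just outside 2 kb and pathway genes were picked after their values were seen. The members, groups and pathway lists were chosen with earlier results of these data known. Assignment was tested on simulated data. Python 3.11.15, pandas 2.3.3 and matplotlib 3.10.9 were used. Alternatives were other windows, thresholds, overlaps, list sizes, nearest-gene assignment and member rules, and each list left out.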

Additional observations from a re-analysis of the deposited data

How the results depend on the processing

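No paired analysis was possible because no test is fitted over libraries, the wild-type libraries entering only inside each peak list. Members with a shared region numbered 21 (35.6% against 15.1% of all genes), and 8 to 18 with 1 list left out. The count was 33 with a window of 5 kb (55.9% against 26.9%) and 12 in the better-ranked 50% of each list (20.3% against 7.33%). It was 11 (18.6% against 8.01%) for regions that needed a list 1 peak, a choice made after seeing the data. Members with a region in all 3 lists numbered 8, or 13.6% against 4.13% of all genes. With 5 kb they numbered 19 (32.2% against 8.19%). In the better-ranked 50% they numbered 2 (3.39% against 1.29%), and with equal numbers of peaks 3 (5.08% against 1.09%). A reciprocal overlap of 50% left 1 (1.69% against 0.649%), and summits chained within 100 bp left 3 (5.08% against 1.97%). No count with 1 list left out exists for these. Members with a peak in list 1 numbered 39 (66.1% against 53.2% of all genes). In the better-ranked 50% they numbered 19 (32.2% against 29.7%), and with equal numbers of peaks 10 (16.9% against 14.6%). With the nearest gene alone they numbered 25 (42.4% against 32.9%). In list 2 they numbered 23 (39.0% against 19.0%), 37 with 5 kb (62.7% against 33.0%) and 14 in the better-ranked 50% (23.7% against 9.79%). In list 3 they numbered 18 (30.5% against 14.2%), and 32 with 5 kb (54.2% against 25.5%). With peaks restricted to a false discovery rate of 1% as the authors give it, each of these 5 counts was 0, as no member peak stood at that rate. The shares of all genes at that limit were 0.572% or lower. Wherever the count of shared members was above 0, its percent was above that of all genes, from 13.6% against 4.58% without list 2 to 55.9% against 26.9% with 5 kb. CBF1, CRF3, DREB26, ERF10, RAP2.2 and RAV2 had a shared region under 12 of 13 alternatives, all but the false discovery rate of 1%, and ERF71 under 4. The genes kept under 12 each had a region in all 3 lists. Keeping a shared region with 1 list left out, or with a list 1 peak needed, largely follows from that. A gene whose only shared region is of 2 lists loses it without either, so these alternatives restate the number of lists. With the nearest gene alone, ERF105, CRF5, CRF9, CBF3, ERF12 and ERF71 lost theirs. Dropping the 11 CRF genes named only as cytokinin response factors, also chosen after seeing the data, gave 16 of 48 (33.3% against 15.1%).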

Other observations

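At ERF10 the order by p and the order by the authors' false discovery rate differed. Its list 3 peak ranked 31 among 2931 by p and had a rate of 29.0%, while the CBF1 peaks of that list ranked 205 and 217 and had rates of 13.7% and 13.8%. The CRF9 peak of list 2 ranked 251 among 4093 by p and 1235 by fold. In list 1 the peak at CRF3 ranked 295 among 12177 by p with a fold of 1.46, the best rank of a list 1 peak at a member.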
